A study of Mus musculus with 9 samples.

Results

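The genes described here are the WNT ligands (symbols that begin with Wnt and a digit), the frizzled receptors (Fzd and a digit), the secreted antagonists of the Sfrp and Dkk families, and a few named partners: Frzb, Wif1, Lrp5, Lrp6, Axin2, Lef1, Tcf7 and Ctnnb1. The rule goes by symbol and uses no measured value, though the set was proposed with earlier results of these data known. Of 19053 genes with a probe on the array, 45 met this rule, with 81 probes between them. They were 19 ligands, 10 frizzled receptors, 2 co-receptors, 10 secreted antagonists and 3 intracellular or nuclear genes, and 1 further entry, Fzd10os, which is an antisense RNA beside Fzd10 and met the rule by its name alone. Tcf7 was not analysed here.

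WNT proteins are secreted, lipid-modified ligands that bind frizzled receptors on the same or a neighbouring cell. With the co-receptors Lrp5 or Lrp6 they stop the breakdown of beta-catenin (Ctnnb1), which then enters the nucleus and acts with TCF/LEF factors on targets such as Axin2. Other ligands, of which Wnt5a is the best known, act mostly without beta-catenin through cell polarity and calcium signals. Secreted frizzled-related proteins and Dickkopf proteins act outside the cell, the first by binding WNT proteins and the second, for most of the family, by binding Lrp5 and Lrp6. In the mouse heart the pathway acts at several stages of cardiomyocyte formation, and it is quiet in most adult heart muscle.

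The study asked how far cardiomyocytes traced to c-kit-positive endogenous cardiac stem cells (eCSCs) had differentiated. Total RNA of 9 samples was hybridised to Illumina mouse bead arrays, 3 arrays per group, and all samples came from a ROSA26 reporter strain on a C57BL/6J background, in which Cre turns on EYFP. The first group, YFP-positive cardiomyocytes, was sorted by flow cytometry from the left ventricular apex of mice given a lentivirus carrying Cre under c-kit control, 28 days after isoproterenol (ISO). The second was normal adult cardiomyocytes, and the third was c-kit-positive, CD45-negative eCSCs that had been kept in culture and harvested at passage 4. ISO, which damages heart muscle diffusely, was 1 injection of 200 mg/kg under the skin. The labels repeat the ISO treatment for all 9 samples, and they do not settle whether the adult cells or the eCSCs came from injected mice. The titles also call the YFP-positive samples in vitro, against the account of sorting from the heart. No age is given, and no label names separate mice or cultures behind the 3 arrays of a group, so each p-value reflects only how far these arrays scatter, and that scatter could be technical.

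Each array detected 15326 to 19048 of its 45281 probes, and replicate arrays correlated at 0.975 to 0.992 across detected genes. Of the heart muscle markers, all 8 were detected in both cardiomyocyte groups, while 7 of 8 were detected on none of the eCSC arrays. Markers of other heart cells were also present in the sorted cells and differed between the groups. Summed normalized signals of 7 fibroblast markers were 7251.2 to 9855.2 in YFP-positive cardiomyocytes, 1807.9 to 2822.2 in adult cardiomyocytes and 461.9 to 561.2 in eCSCs. Such a sum follows its brightest marker, which in adult cardiomyocytes was Dcn (mean log2 signal 10.96). By the test described below, 3 of the 7 were higher and 3 lower in adult cardiomyocytes than in eCSCs. Their median log2 difference was -0.19, and of all genes 35.8% were higher and 39.4% lower. For 5 epicardial and mesothelial markers they were 617.5 to 2134.9 in YFP-positive cardiomyocytes, 112.5 to 130.1 in adult cardiomyocytes and 394.2 to 584.5 in eCSCs. The brightest of these in eCSCs was Msln (mean log2 signal 8.63). Of the 5, 1 was higher and 1 lower in adult cardiomyocytes than in eCSCs. These are RNA levels of whole samples, in which fewer cells of a type and less RNA per cell cannot be told apart.

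A member counted as detected in a group where at least 1 of its probes had a detection p under 0.05 on all 3 arrays. By this rule 17 of the 45 members were detected in YFP-positive cardiomyocytes, 12 in adult cardiomyocytes and 6 in eCSCs. Over all genes the shares detected were 47% in YFP-positive cardiomyocytes, 41.7% in adult cardiomyocytes and 42.8% in eCSCs. Detected in all 3 groups were 4 members: Ctnnb1, Fzd5, Fzd7 and Wnt5a. Both cardiomyocyte groups, but not eCSCs, had Axin2, Fzd6, Fzd8, Lrp5, Lrp6 and Wnt5b. For Lrp6 the cardiomyocyte groups passed by different probes. The Lrp6 probe that passed in YFP-positive cardiomyocytes measured 4.75, 5.07 and 4.60 there and 5.48, 4.60 and 5.45 in eCSCs. It was detected on 1 adult array and 2 eCSC arrays. YFP-positive cardiomyocytes were the one group with Dkk3, Fzd2, Fzd4, Sfrp1, Sfrp2, Wnt2 and Wnt4. Adult cardiomyocytes were the one group with Fzd10 and Wnt2b, and eCSCs the one group with Wnt10a and Wnt7b. Missing the rule in a group does not mean absence. By their best probe Dkk3 and Fzd4 were each detected on 2 adult arrays, Fzd2, Fzd4 and Lrp6 on 2 eCSC arrays, and Fzd10 on 2 YFP-positive arrays. Another Fzd10 probe was detected on 2 YFP-positive arrays and on no adult array. Arrays also differed in their dimmest detected log2 signal. It was 4.59 to 4.75 in YFP-positive cardiomyocytes, 4.83 to 4.91 in adult cardiomyocytes and 4.67 to 4.80 in eCSCs. The same level can thus pass in 1 group and miss in another. Fzd2 averaged 4.997 in both YFP-positive cardiomyocytes and eCSCs. Between the cardiomyocyte groups Fzd2, Fzd4, Sfrp2 and Wnt4 did not pass the test described below.

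By role, 4 of the 19 ligands were detected in YFP-positive cardiomyocytes, 3 in adult cardiomyocytes and 3 in eCSCs. Of the 10 frizzled receptors, 6 were detected in YFP-positive cardiomyocytes, 5 in adult cardiomyocytes and 2 in eCSCs. Of the 10 secreted antagonists, 3 were detected in YFP-positive cardiomyocytes, 0 in adult cardiomyocytes and 0 in eCSCs, although Wif1 reached 2 adult arrays. In none of the groups were 24 members detected, and 15 of these were on no array at all: Wnt1, Wnt3, Wnt6, Wnt7a, Wnt8b, Wnt9a, Wnt11, Fzd1, Fzd9, Fzd10os, Dkk1, Dkk2, Dkk4, Frzb and Sfrp4. The others reached 1 or 2 arrays of some group and were Wnt3a, Wnt8a, Wnt9b, Wnt10b, Wnt16, Fzd3, Sfrp5, Wif1 and Lef1. Lef1, a nuclear partner of beta-catenin, was detected on 2 YFP-positive arrays, 1 adult array and no eCSC array.

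**Figure D1:**
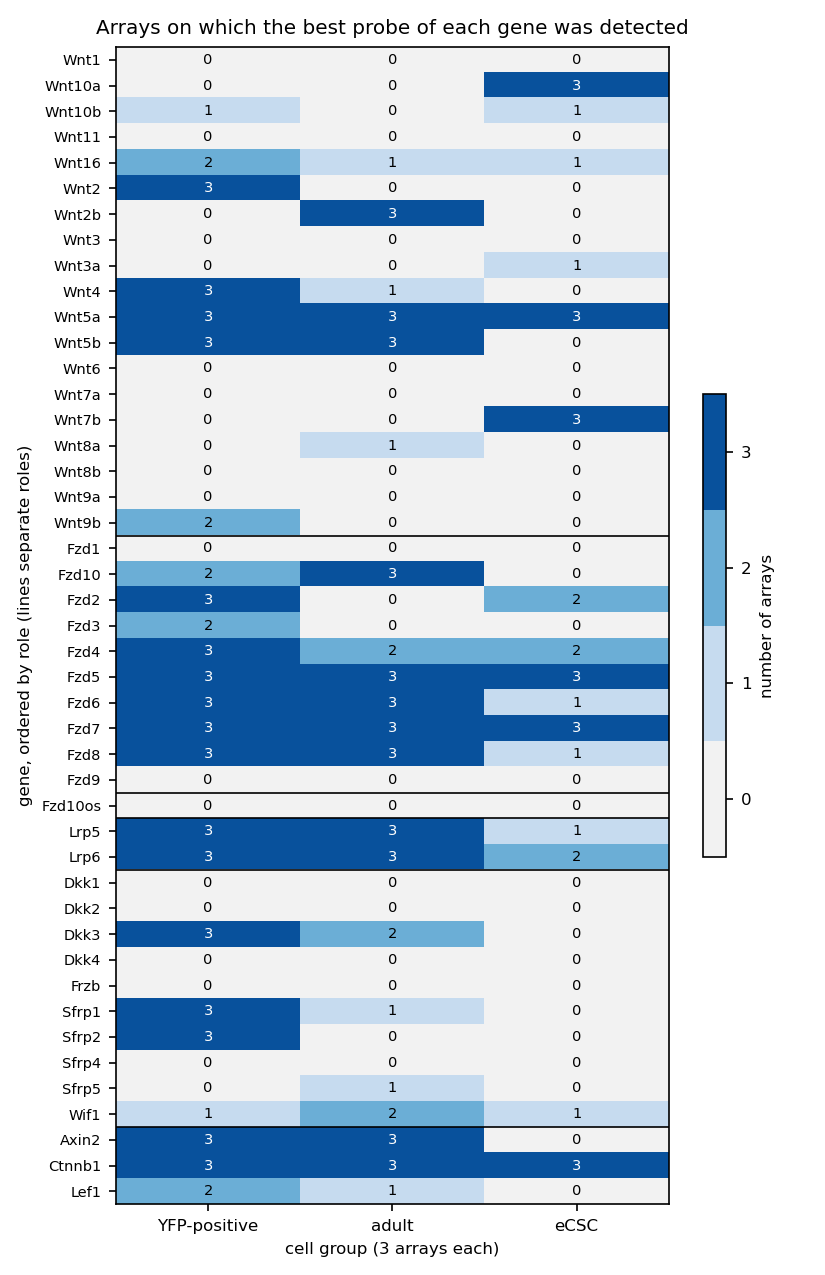
Number of arrays (0 to 3) on which the best probe of each of the 45 members was detected, in rows by role and in columns for YFP-positive cardiomyocytes, adult cardiomyocytes and eCSCs. Dark cells mark detection on all 3 arrays, which 17 members reached in YFP-positive cardiomyocytes, 12 in adult cardiomyocytes and 6 in eCSCs; the secreted antagonists have dark cells in the YFP-positive column alone.

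The 21 members detected in at least 1 group entered a linear model with all 10024 detected genes (limma, two-sided, Benjamini-Hochberg adjustment over all genes, threshold 0.05). A member detected in 1 group alone had to be high there to enter, so the counts below describe these 21 members and not the family. Levels are normalized log2 signals, a difference of 1 is 2-fold, and levels of different genes are not compared because each has its own probe.

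In YFP-positive cardiomyocytes against eCSCs, 14 members were higher, 2 were lower and 5 did not pass the test. Over all genes tested 73% passed, 34.4% higher and 38.6% lower. The median log2 difference was 0.77 over the members and -0.10 over all genes. In 17 members the 2 groups did not overlap (76.1% over all genes). In adult cardiomyocytes against eCSCs, 12 members were higher, 2 lower and 7 did not pass, where 75.2% of all genes passed, 35.8% higher and 39.4% lower. The median was 0.56 over the members and -0.05 over all genes, and 15 members did not overlap (77.7% over all genes). The 2 comparisons share the eCSC arrays. With arrays scaled by their median in place of quantile normalization, 6 members were higher and 2 lower in adult cardiomyocytes. The median of all genes then stood at -0.68.

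In YFP-positive against adult cardiomyocytes, 4 members were higher (Dkk3, Sfrp1, Wnt2 and Ctnnb1), 5 were lower (Fzd10, Lrp6, Wnt2b, Wnt5a and Wnt5b) and 12 did not pass. Over all genes 50.5% passed, 22.8% higher and 27.7% lower. The median was 0.07 over the members and -0.08 over all genes, and 10 members did not overlap (58.7% over all genes). Median scaling kept all 4 higher calls and none of the 5 lower ones, with the median of all genes at 0.16, and so did no normalization between arrays, with that median at 0.24. Calls of at least 2-fold numbered 8 members in YFP-positive cardiomyocytes against eCSCs (45.7% of all genes), 8 in adult cardiomyocytes against eCSCs (51.3%) and 2 in YFP-positive against adult cardiomyocytes (19.5%).

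**Figure D2:**
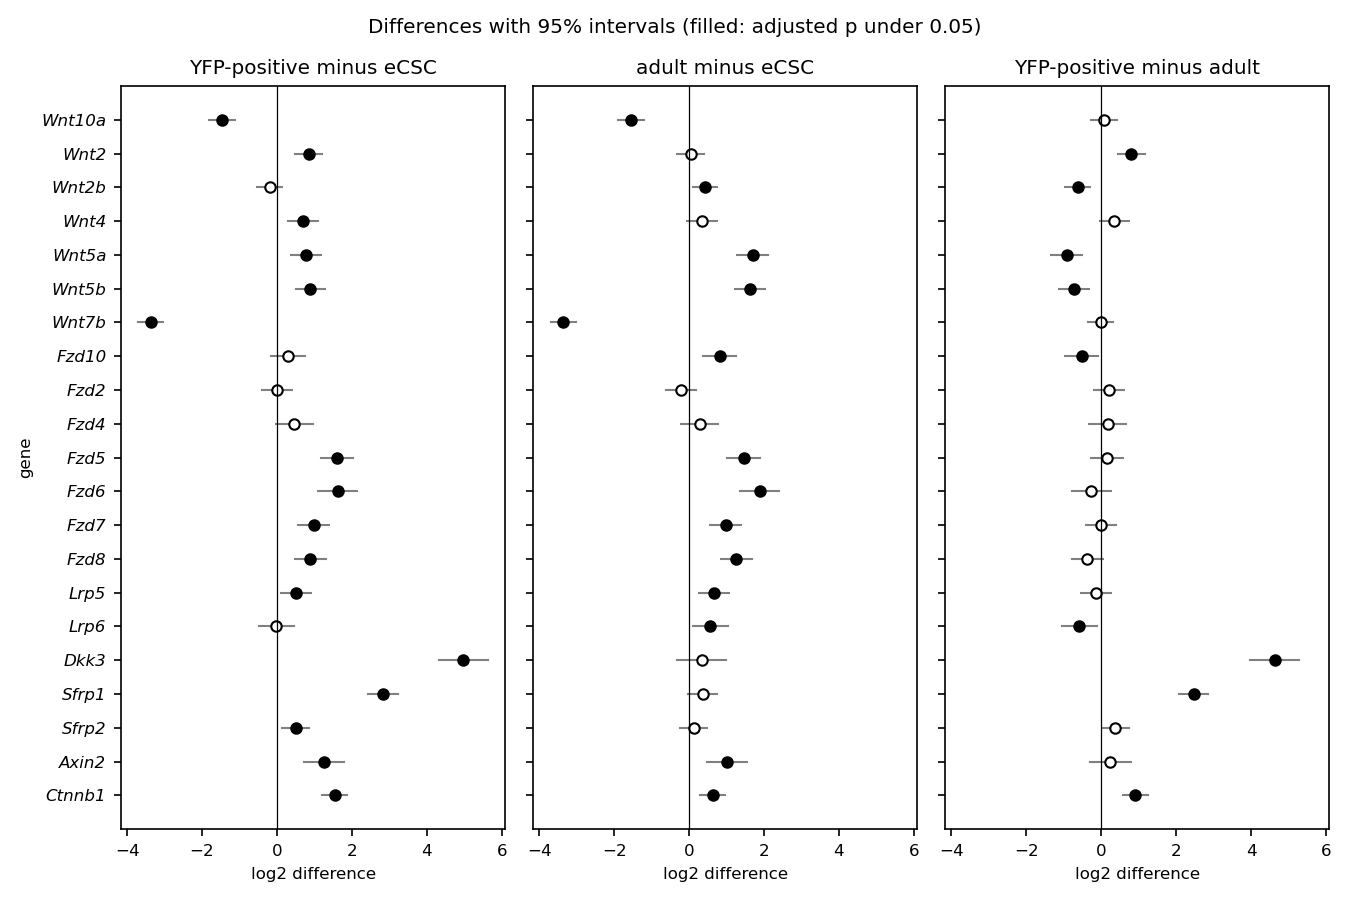
Log2 differences of the 21 tested members, as points with 95% intervals, in YFP-positive cardiomyocytes minus eCSCs (left), adult cardiomyocytes minus eCSCs (middle) and YFP-positive minus adult cardiomyocytes (right). Filled points passed the test; Wnt7b and Wnt10a lie left of 0 in the first 2 panels, and Dkk3 and Sfrp1 lie far right of 0 in the first and last.

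Promoter sequences from RefSeq (build GRCm38.p6, 250 bases before to 50 after a start) were at hand for 30 of the 45 members and for 11 of the 21 tested. Shown are windows of 3 members that were higher in both cardiomyocyte groups than in eCSCs: the target Axin2, the receptor Fzd7 and the ligand Wnt5b. Capitals mark the TCF/LEF core, searched on both strands as CTTTG followed by 2 letters that are each A or T (4 spellings).
Axin2, chr11:108920099-108920398, plus strand: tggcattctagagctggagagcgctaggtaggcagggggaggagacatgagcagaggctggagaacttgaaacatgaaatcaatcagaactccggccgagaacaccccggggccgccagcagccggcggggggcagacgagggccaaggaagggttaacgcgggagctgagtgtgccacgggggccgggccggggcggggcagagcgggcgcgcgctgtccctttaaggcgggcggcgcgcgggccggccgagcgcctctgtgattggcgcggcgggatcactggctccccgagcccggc
Fzd7, chr1:59481897-59482196, plus strand: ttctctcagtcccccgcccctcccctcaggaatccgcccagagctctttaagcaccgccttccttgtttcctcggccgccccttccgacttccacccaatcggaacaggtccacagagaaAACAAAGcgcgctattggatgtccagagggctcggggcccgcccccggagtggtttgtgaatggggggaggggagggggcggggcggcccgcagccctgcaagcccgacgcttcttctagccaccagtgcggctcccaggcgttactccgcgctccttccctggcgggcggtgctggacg
Wnt5b, the third of 3 listed starts, chr6:119449337-119449636, minus strand: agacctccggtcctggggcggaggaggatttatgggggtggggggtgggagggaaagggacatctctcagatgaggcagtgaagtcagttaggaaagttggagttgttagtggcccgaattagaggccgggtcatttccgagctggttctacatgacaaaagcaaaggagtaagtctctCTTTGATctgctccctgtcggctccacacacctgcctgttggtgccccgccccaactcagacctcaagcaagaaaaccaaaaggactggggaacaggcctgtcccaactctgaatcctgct
The Fzd7 window held 1 match, CTTTGTT on the opposite strand, 130 bases before the start. The Wnt5b window held CTTTGAT on its own strand, 71 bases before the start, and the other 2 Wnt5b windows held none. Axin2 had no match in this window, which is 70% GC. Among the 11 tested members with a window 2 held a match (18.2%), beside 18.9% of all 27025 genes with one, and by window the share was 16.9% of 32851. Those 2 members were Fzd7 and Wnt5b, so the windows shown do not stand for the tested members. Ctnnb1 and Fzd5, also called higher in both cardiomyocyte groups than in eCSCs, had windows without a match, which are not shown.

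Among the ligands, 2 were high in eCSCs and at background in both cardiomyocyte groups. Wnt7b, a ligand known in the mouse for lung and brain vessel development, measured 4.25, 4.35 and 4.39 in YFP-positive cardiomyocytes, 4.22, 4.34 and 4.47 in adult cardiomyocytes and 7.64, 7.77 and 7.67 in eCSCs. Every eCSC array stood more than 3 log2 units above every cardiomyocyte array, and Wnt7b was detected on none of the 6 cardiomyocyte arrays. Against eCSCs, YFP-positive cardiomyocytes were at least 8.29-fold lower (limma, adjusted p = 1.31e-10). In adult cardiomyocytes it was at least 7.13-fold lower than in eCSCs (adjusted p = 9.97e-11). A second, dimmer Wnt7b probe passed with smaller differences, at -0.88 in YFP-positive cardiomyocytes (adjusted p = 0.000976) and -0.75 in adult cardiomyocytes (adjusted p = 0.00314) against eCSCs. The bounds set the bright group against the dimmest detected signal of each dim array, or the probe's own signal where higher. Wnt10a, a ligand of tooth and hair follicle development, had the same order. It measured 4.41, 4.55 and 4.30 in YFP-positive cardiomyocytes, 4.32, 4.32 and 4.40 in adult cardiomyocytes and 5.93, 5.69 and 6.03 in eCSCs. Against eCSCs, YFP-positive cardiomyocytes were at least 2.37-fold lower and adult cardiomyocytes at least 2.04-fold lower (adjusted p = 1.61e-06 and 7.43e-07). YFP-positive and adult cardiomyocytes overlapped in both ligands.

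Wnt5a and Wnt5b, closely related ligands that act mostly outside the beta-catenin branch, ran the other way. Wnt5a measured 6.84, 6.33 and 6.16 in YFP-positive cardiomyocytes, 7.43, 7.42 and 7.25 in adult cardiomyocytes and 5.67, 5.80 and 5.54 in eCSCs. The 3 groups did not overlap, with adult cardiomyocytes highest and eCSCs lowest. It was 1.71-fold higher in YFP-positive cardiomyocytes than in eCSCs (log2 difference 0.77 ± 0.19 SE, adjusted p = 0.00221) and 3.25-fold higher in adult cardiomyocytes than in eCSCs (log2 difference 1.70 ± 0.19 SE, adjusted p = 1.42e-06). Against adult cardiomyocytes it was 1.90-fold lower in YFP-positive cardiomyocytes (log2 difference -0.93 ± 0.19 SE, adjusted p = 0.00128). A second Wnt5a probe passed the test in the last 2 comparisons but not against eCSCs in YFP-positive cardiomyocytes, where its difference was 0.03 (adjusted p = 0.906). That call was also lost with median scaling (0.53, adjusted p = 0.098).

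Wnt5b measured 5.29, 5.57 and 5.25 in YFP-positive cardiomyocytes, 6.17, 6.31 and 5.82 in adult cardiomyocytes and 4.70, 4.29 and 4.45 in eCSCs. Again adult cardiomyocytes were highest and the groups did not overlap. It was detected on no eCSC array and was at least 1.55-fold higher in YFP-positive cardiomyocytes and at least 2.56-fold higher in adult cardiomyocytes than in eCSCs (adjusted p = 0.000595 and 1.79e-06). YFP-positive cardiomyocytes were 1.66-fold lower than adult cardiomyocytes (log2 difference -0.73 ± 0.19 SE, adjusted p = 0.00526). For both genes the call between the cardiomyocyte groups was lost with median scaling, at -0.45 for Wnt5a and -0.22 for Wnt5b.

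The remaining detected ligands lay near background. Wnt2, which with Wnt2b specifies the mouse lung, was at least 1.31-fold higher in YFP-positive cardiomyocytes than in eCSCs (adjusted p = 0.000399) and at least 1.21-fold higher than in adult cardiomyocytes (adjusted p = 0.00139), where it was not detected. Wnt2b was detected in adult cardiomyocytes alone and was at least 1.24-fold lower in YFP-positive than in adult cardiomyocytes (adjusted p = 0.00392). Between adult cardiomyocytes and eCSCs its bound was 1.15-fold (adjusted p = 0.0201), and that call was lost with median scaling, without adult replicate 3 (0.41, adjusted p = 0.0532) and without eCSC replicate 2 (0.37, adjusted p = 0.0679). Wnt4, needed for kidney tubule formation in the mouse, was at least 1.22-fold higher in YFP-positive cardiomyocytes than in eCSCs (adjusted p = 0.00369). Its difference between YFP-positive and adult cardiomyocytes was 0.35, with a 95% interval of -0.04 to 0.74.

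**Figure D3:**
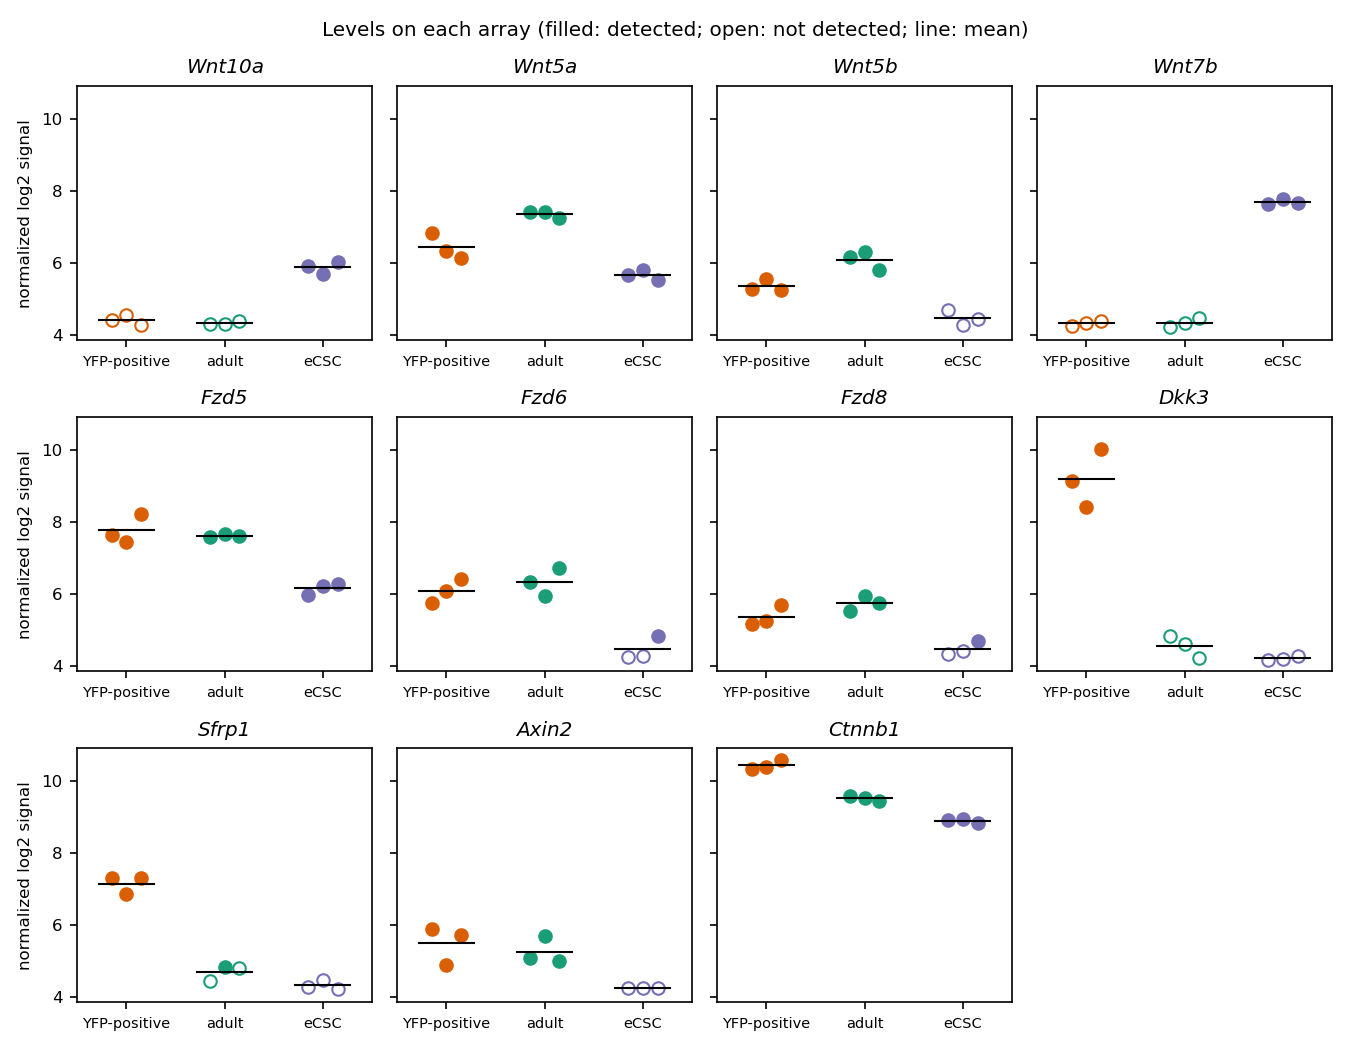
Normalized log2 signal on each of 9 arrays for the 11 members that were called with a difference of at least 2-fold in 1 or more comparisons, in YFP-positive cardiomyocytes, adult cardiomyocytes and eCSCs (left to right). Filled points were detected, open points were not, and lines are means; Dkk3 and Sfrp1 stand out in YFP-positive cardiomyocytes, Wnt7b and Wnt10a in eCSCs.

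The frizzled receptors Fzd5, Fzd6, Fzd7 and Fzd8 were higher in both cardiomyocyte groups than in eCSCs, and none of them differed between the cardiomyocyte groups by the test. Fzd5, a receptor close in sequence to Fzd8, measured 7.65, 7.44 and 8.24 in YFP-positive cardiomyocytes, 7.58, 7.66 and 7.63 in adult cardiomyocytes and 5.98, 6.24 and 6.29 in eCSCs. It was 3.04-fold higher in YFP-positive cardiomyocytes than in eCSCs (log2 difference 1.61 ± 0.20 SE, adjusted p = 5.87e-06) and 2.74-fold higher in adult cardiomyocytes than in eCSCs (log2 difference 1.45 ± 0.20 SE, adjusted p = 1.28e-05). All cardiomyocyte arrays lay above all eCSC arrays. A second, dimmer Fzd5 probe did not pass against eCSCs, at 0.27 in YFP-positive (adjusted p = 0.149) and -0.07 in adult cardiomyocytes (adjusted p = 0.729), so the probes of this gene disagree. The adult call was also lost with median scaling (0.65, adjusted p = 0.086).

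Fzd6, which orients hair follicles in the mouse through the polarity branch, measured 5.74, 6.09 and 6.42 in YFP-positive cardiomyocytes, 6.34, 5.96 and 6.74 in adult cardiomyocytes and 4.27, 4.28 and 4.85 in eCSCs. It was 3.07-fold higher in YFP-positive cardiomyocytes than in eCSCs (log2 difference 1.62 ± 0.24 SE, adjusted p = 2.95e-05) and 3.69-fold higher in adult cardiomyocytes than in eCSCs (log2 difference 1.88 ± 0.24 SE, adjusted p = 5.35e-06). The groups did not overlap with eCSCs, where 1 of 3 arrays was above background. Its second probe passed the same tests, at 2.12 in YFP-positive and 1.87 in adult cardiomyocytes.

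Fzd8 measured 5.16, 5.26 and 5.71 in YFP-positive cardiomyocytes, 5.53, 5.94 and 5.76 in adult cardiomyocytes and 4.35, 4.42 and 4.69 in eCSCs. YFP-positive cardiomyocytes were 1.86-fold higher than eCSCs (log2 difference 0.89 ± 0.19 SE, adjusted p = 0.000799) and adult cardiomyocytes 2.39-fold higher than eCSCs (log2 difference 1.26 ± 0.19 SE, adjusted p = 3.24e-05). Fzd8 was above background on 1 of 3 eCSC arrays, so these folds, like those of Fzd6, are set against a level mostly at background. Fzd7, whose promoter is shown above, was 1.97-fold higher in YFP-positive cardiomyocytes (adjusted p = 0.000356) and 1.98-fold higher in adult cardiomyocytes (adjusted p = 0.000303) than in eCSCs. The adult Fzd7 call was lost with median scaling (0.33, adjusted p = 0.336). Between YFP-positive and adult cardiomyocytes the 95% intervals of the difference were -0.28 to 0.59 for Fzd5, -0.78 to 0.25 for Fzd6, -0.41 to 0.41 for Fzd7 and -0.78 to 0.05 for Fzd8, which leaves room for differences of up to about 0.8. Without YFP-positive replicate 3, Fzd8 passed as lower in YFP-positive than in adult cardiomyocytes (-0.53, adjusted p = 0.0474).

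The other frizzled receptors stayed close to background. Fzd2 did not pass in any comparison, and its difference between YFP-positive cardiomyocytes and eCSCs had a 95% interval of -0.40 to 0.40. Fzd4, the receptor for Norrin in retinal vessels, also did not pass, at 0.45 between YFP-positive cardiomyocytes and eCSCs (adjusted p = 0.0889). Fzd10 was at least 1.36-fold higher in adult cardiomyocytes than in eCSCs (adjusted p = 0.00260). Between YFP-positive and adult cardiomyocytes it lay just inside the threshold (adjusted p = 0.0490), with overlapping arrays and 2 of 3 YFP-positive arrays above background, and it missed it in 7 of the 9 fits that left out 1 array. These were the fits without YFP-positive replicate 1 or 3, adult replicate 1 or 3, or any of the 3 eCSC arrays, with differences of -0.56 to -0.33 and an adjusted p of up to 0.219.

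The co-receptors differed by less than 2-fold. Lrp5 was 1.43-fold higher in YFP-positive cardiomyocytes (adjusted p = 0.0216) and 1.58-fold higher in adult cardiomyocytes (adjusted p = 0.00518) than in eCSCs, where it was above background on 1 of 3 arrays. Lrp6 differed by -0.02 between YFP-positive cardiomyocytes and eCSCs (adjusted p = 0.940), was 1.48-fold higher in adult cardiomyocytes than in eCSCs (adjusted p = 0.0312) and 1.499-fold lower in YFP-positive than in adult cardiomyocytes (adjusted p = 0.0395). Both Lrp6 calls, and the adult Lrp5 call, were lost with median scaling, and a second Lrp6 probe passed in no comparison. The Lrp6 probe tested was above background on 2 of 3 YFP-positive arrays, 3 of 3 adult arrays and 2 of 3 eCSC arrays. Single arrays also decided these calls. Lrp5 in YFP-positive cardiomyocytes against eCSCs did not pass without YFP-positive replicate 3 (0.42, adjusted p = 0.0898), eCSC replicate 2 (0.44, 0.0811) or eCSC replicate 3 (0.45, 0.0649). Lrp6 in adult cardiomyocytes against eCSCs did not pass without adult replicate 1 (0.42, adjusted p = 0.128), adult replicate 3 (0.58, 0.0566) or eCSC replicate 1 (0.35, 0.177). In YFP-positive against adult cardiomyocytes Lrp6 did not pass without YFP-positive replicate 1 (-0.63, adjusted p = 0.0592) or 2 (-0.44, 0.134), or adult replicate 1 (-0.44, 0.149) or 3 (-0.60, 0.0726).

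The widest difference between the cardiomyocyte groups among the members was in Dkk3, which is grouped here with the secreted antagonists by its family name. Dkk3, a Dickkopf family protein that differs from Dkk1 in not acting clearly through Lrp6, measured 9.14, 8.43 and 10.03 in YFP-positive cardiomyocytes, 4.83, 4.63 and 4.24 in adult cardiomyocytes and 4.18, 4.20 and 4.30 in eCSCs. All 3 YFP-positive arrays lay far above the other 6, with replicate 2 lowest, while the adult and eCSC arrays overlapped. By this probe it was not above background in adult cardiomyocytes or eCSCs, and it was at least 20.2-fold higher in YFP-positive than in adult cardiomyocytes (limma, adjusted p = 4.74e-08). Against eCSCs it was at least 21.9-fold higher in YFP-positive cardiomyocytes (adjusted p = 2.82e-09). The second Dkk3 probe, detected on 2 of 3 adult arrays, passed the same tests at 3.76 against adult cardiomyocytes and 4.22 against eCSCs. Adult cardiomyocytes and eCSCs differed by 0.34 (95% interval -0.31 to 0.99).

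Sfrp1, a secreted protein with a frizzled-like domain that binds WNT ligands, measured 7.31, 6.87 and 7.30 in YFP-positive cardiomyocytes, 4.45, 4.83 and 4.80 in adult cardiomyocytes and 4.28, 4.49 and 4.23 in eCSCs. YFP-positive arrays again stood apart from all others. Sfrp1 was above background on 1 of 3 adult arrays, so the fold against adult cardiomyocytes is set against a level mostly at background. It was 5.52-fold higher in YFP-positive than in adult cardiomyocytes (log2 difference 2.47 ± 0.18 SE, adjusted p = 1.55e-07) and at least 5.33-fold higher in YFP-positive cardiomyocytes than in eCSCs (adjusted p = 5.59e-09). The second Sfrp1 probe passed both tests, at 1.23 against adult cardiomyocytes and 1.47 against eCSCs. Sfrp2, of the same family, was at least 1.12-fold higher in YFP-positive cardiomyocytes than in eCSCs (adjusted p = 0.0148) and did not pass against adult cardiomyocytes (0.38, adjusted p = 0.0735). Without eCSC replicate 1 the Sfrp2 call against eCSCs was lost (0.42, adjusted p = 0.0674). Sfrp1 in adult cardiomyocytes against eCSCs passed only without adult replicate 1 among the fits that left out 1 array (0.48, adjusted p = 0.0417), and also with array weights (0.40, adjusted p = 0.0263).

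Markers of several other cell types were higher in the same group as Dkk3, Sfrp1 and Wnt2. All 7 fibroblast markers tested were higher in YFP-positive than in adult cardiomyocytes, with a median log2 difference of 2.69. All 5 epicardial and mesothelial markers tested were also higher, with a median of 2.48, and Msln, Krt19 and Krt8 were detected on no adult array. Tbx18, of the same list, was detected on no array of any group and was not tested. Of the endothelial markers 7 were higher and 1 was lower, and of 7 leukocyte markers 5 were higher. Of 5 smooth muscle and pericyte markers tested 1 was higher and 4 did not pass, with a median of 0.16. Beside these counts, 50.5% of all genes passed between the cardiomyocyte groups, 22.8% higher and 27.7% lower. In eCSCs 4 of the 7 fibroblast markers tested (Col1a1, Col1a2, Col3a1 and Pdgfra) were detected on all 3 arrays, Dcn on 1, and Tcf21 and Lum on none. The part of these cells in the antagonist levels was not tested.

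Axin2, a scaffold of the complex that breaks down beta-catenin and a direct target of the pathway, measured 5.90, 4.89 and 5.73 in YFP-positive cardiomyocytes, 5.08, 5.69 and 5.01 in adult cardiomyocytes and 4.27, 4.24 and 4.25 in eCSCs. It was detected on all 6 cardiomyocyte arrays and on none of the eCSC arrays. It was at least 1.70-fold higher in YFP-positive cardiomyocytes (adjusted p = 0.000438) and at least 1.43-fold higher in adult cardiomyocytes (adjusted p = 0.00217) than in eCSCs. The adult Axin2 call was lost with no normalization between arrays (0.62, adjusted p = 0.112). YFP-positive and adult cardiomyocytes overlapped (0.25, 95% interval -0.29 to 0.78). Without YFP-positive replicate 2, the lowest of its group, that difference was 0.55 and passed (adjusted p = 0.0448).

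Ctnnb1, which encodes beta-catenin, a protein of cell junctions as well as of WNT signalling, measured 10.34, 10.39 and 10.61 in YFP-positive cardiomyocytes, 9.60, 9.54 and 9.46 in adult cardiomyocytes and 8.92, 8.95 and 8.83 in eCSCs. The 3 groups did not overlap. It was 2.92-fold higher in YFP-positive cardiomyocytes than in eCSCs (log2 difference 1.54 ± 0.16 SE, adjusted p = 6.66e-07) and 1.89-fold higher in YFP-positive than in adult cardiomyocytes (log2 difference 0.91 ± 0.16 SE, adjusted p = 0.000331). Adult cardiomyocytes were 1.55-fold higher than eCSCs (log2 difference 0.63 ± 0.16 SE, adjusted p = 0.00218), but this direction turned with median scaling (-0.22, adjusted p = 0.470). Of the 4 detected Ctnnb1 probes, 3 gave higher values in YFP-positive than in adult cardiomyocytes and passed. The remaining probe gave -1.28 and also passed (adjusted p = 0.00973), so this gene's probes disagree.

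**Figure D4:**
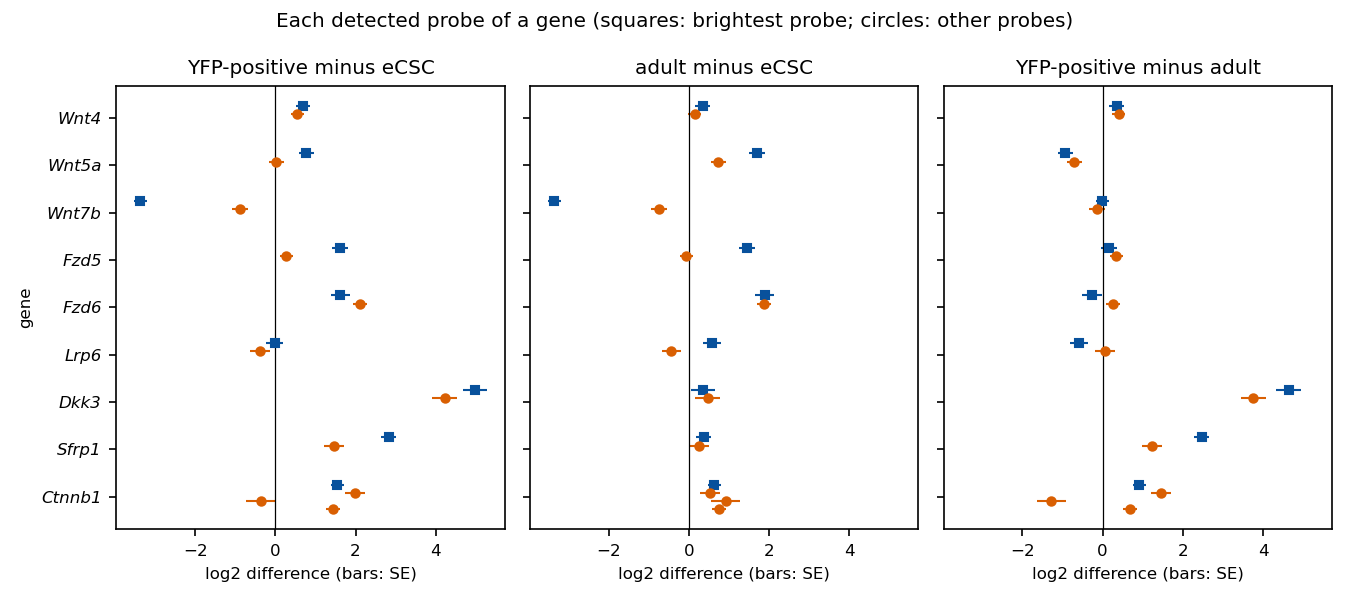
Log2 differences with SE for every detected probe of the 9 members with more than 1, in YFP-positive cardiomyocytes minus eCSCs, adult cardiomyocytes minus eCSCs and YFP-positive minus adult cardiomyocytes (left to right). Squares are the brightest probes, used in the test, and circles the others; the probes of Dkk3, Sfrp1, Wnt7b and Fzd6 lie on the same side of 0 against eCSCs, while those of Ctnnb1 fall on both sides in the last panel.

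A further 80 genes of the pathway, in 8 lists, were set beside the members, and 52 of them were detected and tested. In YFP-positive cardiomyocytes against eCSCs 25 were higher and 20 lower, with a median log2 difference of 0.10; median scaling gave 22 higher and 24 lower, and no normalization 15 higher and 24 lower. Of all genes 73% passed there, 34.4% higher and 38.6% lower. In adult cardiomyocytes against eCSCs 22 were higher and 21 lower, with a median of 0.06; median scaling gave 13 higher and 23 lower. Of all genes 75.2% passed there, 35.8% higher and 39.4% lower. In YFP-positive against adult cardiomyocytes 23 were higher and 13 lower, with a median of 0.28; median scaling gave 23 higher and 2 lower. Of all genes 50.5% passed there, 22.8% higher and 27.7% lower. These shares are the background for the counts by list that follow. Both detected genes of ligand release were lower than in eCSCs in both cardiomyocyte groups. Porcn, which adds the lipid that WNT proteins need for secretion, was lower than in eCSCs, 3.01-fold in YFP-positive cardiomyocytes (adjusted p = 2.25e-05) and 1.77-fold in adult cardiomyocytes (adjusted p = 0.00471). Wls, the carrier of WNT proteins to the cell surface, was 1.86-fold lower in YFP-positive and 2.17-fold lower in adult cardiomyocytes (adjusted p = 0.000892 and 0.000120), and its second probe did not pass.

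Among 5 other receptors and co-receptors tested, YFP-positive cardiomyocytes had 2 higher and 2 lower than eCSCs, and adult cardiomyocytes 1 higher and 3 lower. Ror2, a receptor for Wnt5a, measured 5.66, 5.74 and 6.50 in YFP-positive cardiomyocytes, 4.40, 4.29 and 4.34 in adult cardiomyocytes and 7.01, 7.38 and 7.11 in eCSCs. It was highest in eCSCs, where Wnt5a was lowest, and it was detected on no adult array. It was 2.29-fold lower in YFP-positive cardiomyocytes than in eCSCs (adjusted p = 0.000168), at least 4.95-fold lower in adult cardiomyocytes than in eCSCs (adjusted p = 2.14e-08) and at least 2.16-fold higher in YFP-positive than in adult cardiomyocytes (adjusted p = 3.68e-05). Of 9 genes of the R-spondin system, which adjusts how much frizzled stays on the cell surface, Lgr6 alone was detected. Lgr6, an R-spondin receptor, measured 6.26, 6.91 and 6.82 in YFP-positive cardiomyocytes, 7.71, 7.84 and 8.34 in adult cardiomyocytes and 4.32, 4.35 and 4.39 in eCSCs. It was at least 3.78-fold higher in YFP-positive cardiomyocytes and at least 9.31-fold higher in adult cardiomyocytes than in eCSCs, and 2.46-fold lower in YFP-positive than in adult cardiomyocytes (adjusted p = 2.18e-07, 1.25e-09 and 0.000218).

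Of 5 further secreted or membrane regulators tested, 4 were higher in YFP-positive than in adult cardiomyocytes (Igfbp4, Apcdd1, Tpbg and Cthrc1). Kremen1 was lower. Igfbp4, an IGF-binding protein that also inhibits frizzled and Lrp6, measured 11.16, 10.76 and 10.91 in YFP-positive cardiomyocytes, 6.99, 7.74 and 7.85 in adult cardiomyocytes and 12.81, 13.16 and 13.02 in eCSCs. It was highest in eCSCs and 10.6-fold higher in YFP-positive than in adult cardiomyocytes (adjusted p = 4.44e-08). Apcdd1, a membrane inhibitor, was 2.41-fold lower in YFP-positive cardiomyocytes than in eCSCs (adjusted p = 7.64e-05) and undetected in adult cardiomyocytes. Tpbg, a membrane protein that alters WNT receptor use, was at least 3.13-fold higher in YFP-positive than in adult cardiomyocytes (adjusted p = 2.67e-05). Kremen1, a receptor for Dickkopf proteins, went the other way. It was 7.91-fold higher in YFP-positive cardiomyocytes and 15.1-fold higher in adult cardiomyocytes than in eCSCs (adjusted p = 1.59e-07 and 6.08e-09).

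Inside the cell, 8 genes of the Dishevelled and destruction complex list were tested, with 1 higher and 5 lower in YFP-positive cardiomyocytes than in eCSCs, and 1 higher and 4 lower in adult cardiomyocytes than in eCSCs. Axin1, the scaffold related to Axin2, was 2.41-fold lower in YFP-positive cardiomyocytes and 3.21-fold lower in adult cardiomyocytes than in eCSCs (adjusted p = 1.58e-05 and 6.95e-07), the opposite direction to Axin2. Of 12 nuclear partners, 9 were higher and 2 lower than in eCSCs in each cardiomyocyte group, where of all genes 34.4% were higher in YFP-positive cardiomyocytes and 35.8% in adult cardiomyocytes. Ctnnbip1, a small protein that keeps beta-catenin from TCF factors, was 5.25-fold higher in YFP-positive cardiomyocytes and 3.57-fold higher in adult cardiomyocytes than in eCSCs (adjusted p = 1.35e-07 and 1.66e-06). Tcf7l1, a TCF factor that acts mostly as a repressor, was 3.49-fold higher in YFP-positive cardiomyocytes than in eCSCs and 2.25-fold higher than in adult cardiomyocytes (adjusted p = 8.87e-07 and 0.000204).

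The 8 feedback and reporter genes tested did not move together against eCSCs. Against eCSCs 4 were higher and 4 lower in YFP-positive cardiomyocytes, and 3 were higher and 4 lower in adult cardiomyocytes. The higher ones lay near background. In YFP-positive cardiomyocytes they were Nkd1, Nkd2 and Ccn5 (at least 1.32-, 1.18- and 1.14-fold) and Tnfrsf19, which had no bound above 1. In adult cardiomyocytes they were Tnfrsf19 (at least 1.55-fold), Nkd2 (at least 1.17-fold, above background on 1 of 3 arrays) and Ccn5 (at least 1.03-fold, overlapping eCSCs). The lower ones were Myc, Ccnd1, Cd44 and Ccn4. They ranged from 3.18-fold (Ccnd1) to 10.7-fold lower (Ccn4) in YFP-positive cardiomyocytes than in eCSCs. Genes of this list also have other regulators, and what set the levels of the 8 was not tested. Ccn4, a secreted matrix protein, measured 7.77, 7.34 and 8.18 in YFP-positive cardiomyocytes, 5.87, 5.86 and 5.87 in adult cardiomyocytes and 10.99, 11.24 and 11.33 in eCSCs. It was 10.7-fold lower in YFP-positive cardiomyocytes and 40.0-fold lower in adult cardiomyocytes than in eCSCs (adjusted p = 2.14e-09 and 1.29e-11). Axin2, described above, was higher where these 4 were lower. Between the cardiomyocyte groups most of the 8 genes went 1 way. In YFP-positive against adult cardiomyocytes 5 were higher, 1 was lower and 2 did not pass. Their median log2 difference was 0.996, and 22.8% of all genes were higher there.

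Of 11 genes of the polarity and calcium branch tested, 6 were higher and 2 lower in YFP-positive cardiomyocytes than in eCSCs, and 6 were higher and 3 lower in adult cardiomyocytes than in eCSCs. Prickle1, a core polarity protein, measured 8.84, 8.53 and 8.86 in YFP-positive cardiomyocytes, 8.78, 8.32 and 8.57 in adult cardiomyocytes and 4.32, 4.20 and 4.39 in eCSCs. It was at least 15.99-fold higher in YFP-positive cardiomyocytes and at least 14.0-fold higher in adult cardiomyocytes than in eCSCs (adjusted p = 2.46e-11 and 3.05e-11), and the cardiomyocyte groups overlapped. Its relative Prickle2 was also 3.26-fold higher in YFP-positive than in adult cardiomyocytes (adjusted p = 1.01e-05). Vangl2, the membrane partner of Prickle proteins, was 2.27-fold lower in YFP-positive cardiomyocytes and 3.73-fold lower in adult cardiomyocytes than in eCSCs (adjusted p = 4.20e-05 and 2.64e-07).

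**Figure D5:**
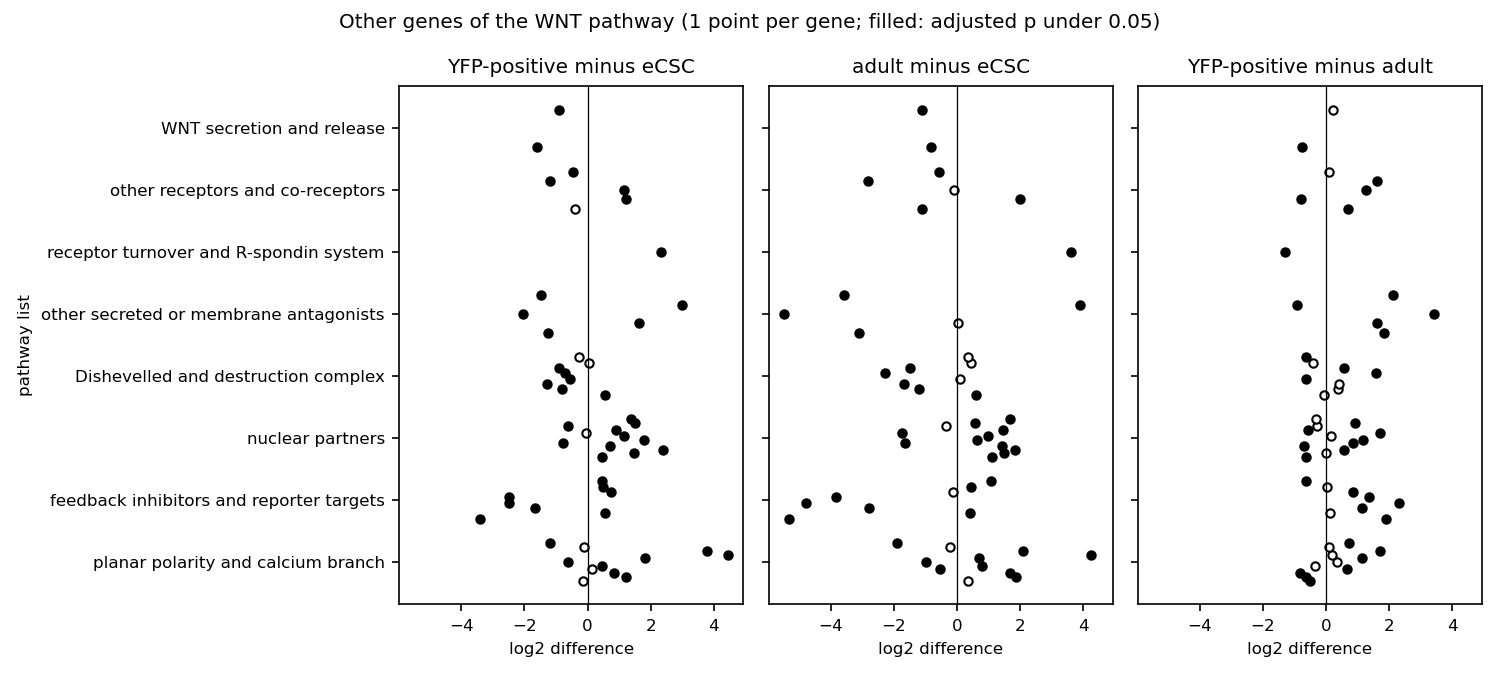
Log2 differences of the 52 other pathway genes by list (rows), 1 point per gene, in YFP-positive cardiomyocytes minus eCSCs, adult cardiomyocytes minus eCSCs and YFP-positive minus adult cardiomyocytes (left to right); filled points passed the test. Points of ligand release lie left of 0 against eCSCs, those of the nuclear partners mostly right of 0, and the feedback genes on both sides.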

How the data were processed

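Total RNA of 3 groups of 3 samples was measured on Illumina mouse bead arrays. The authors deposited raw probe intensities without background subtraction. Beside each stands a column that per the file headers is a detection p-value but rises with the signal; the deposited fraction gives how many of 936 negative control beads were dimmer (whole shares, tolerance 0.01), and 1 minus it served as detection p. A deposited series matrix on a log2-like scale served as an alternative; lumi 2.10.0 and R 2.15.3 are named in the submitters' processing notes, and the normalization method is not given in the sources used here. Arrays have no depth, and 3 per group limit the precision.

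The background was corrected here with limma 3.58.1 (R 4.3.3, version 1.17.8 of data.table) by the neqc steps: normexp from the control beads implied by detection, offset 16, quantile normalization, then log2. Probes with exactly 1 gene symbol (34885 of 45281, updated to RefSeq symbols of GRCm38.p6) were kept where all 3 arrays of some group had a detection p under 0.05 (18180). The brightest kept probe stood for a gene. All 9 arrays entered 1 fit with a mean per group, tested with limma's moderated statistics (two-sided, Benjamini-Hochberg over 10024 genes). The script was tested on simulated data. Figures used Python 3.11.15, matplotlib 3.10.9 and pandas 2.3.3.

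The members, the pathway lists and the marker lists were chosen with earlier results of these data known. Members called at 2-fold or more in any comparison are given on every array; other members are named by detection; up to 4 pathway genes per list and comparison, those with the smallest adjusted p among called genes, could be named. The feedback genes called higher than in eCSCs are named in addition. Alternatives covered background correction, scaling, filters, choice of probe, the series matrix, array weights, a replicate block and each array left out.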

Additional observations from a re-analysis of the deposited data

How the results depend on the processing

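Of 2349 values of single named genes under the alternatives run, 2231 kept their direction and side of the threshold, 98 lost the call, 4 gained one and 16 turned sign. Without quantile normalization the median of all genes shifted to -0.49, -0.68 and 0.16 under median scaling, and to -0.54, -0.80 and 0.24 with no normalization, in YFP-positive cardiomyocytes minus eCSCs, adult cardiomyocytes minus eCSCs and YFP-positive minus adult cardiomyocytes. Members called in adult cardiomyocytes against eCSCs numbered 8 under median scaling and 6 with no normalization, and in YFP-positive against adult cardiomyocytes 4 and 4; pathway genes called in the last comparison numbered 23 with no normalization. With probes detected on all 9 arrays, 4 members entered the fit and, in the same order of comparisons, 4, 4 and 2 were called, with 25, 27 and 21 pathway genes; here fewer genes were tested. A rule of at least 2-fold, chosen after seeing the data like the test of each probe on its own, left 8, 8 and 2 members. A detection p under 0.01 left 7 members detected in adult cardiomyocytes. Leaving out each array in turn gave 15 to 17, 13 to 14 and 7 to 10 members called. With replicate number as a block, 16, 14 and 8 members and 44, 43 and 36 pathway genes were called. In that fit Fzd10 was lost between the cardiomyocyte groups (adjusted p = 0.0674). Same-numbered samples deviated together with correlations of -0.06 to 0.12. In the same order of comparisons, 5, 2 and 2 of 6 samples correlated best with their own number. With so few arrays per group, these values cannot show whether same-numbered samples share more than a number.

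Values that turned sign were these, and the cause was not tested. In adult cardiomyocytes minus eCSCs they were Ctnnb1 (-0.22 with median scaling, -0.35 with no normalization), and the second probes of Fzd5 (-0.065) and Lrp6 (-0.44). In YFP-positive cardiomyocytes minus eCSCs 1 Ctnnb1 probe gave -0.36. In YFP-positive minus adult cardiomyocytes they were that Ctnnb1 probe (-1.28), Fzd5 without YFP-positive replicate 3 (-0.078, where leaving out 1 array gave up to 0.319), Fzd6 (0.22 with median scaling, 0.29 with no normalization, 0.25 by its second probe), Fzd8 (0.13 and 0.21 with these scalings), the second Lrp6 probe (0.065) and Wnt7b, which is at background in both groups (0.0016 with no background correction, 0.026 with no normalization, 0.0021 in the series matrix, and -0.072 to 0.051 when 1 array was left out, above 0 without YFP-positive replicate 1 or adult replicate 3). Signals near background are a further limit: 24 of 45 members could not be tested, and log2 differences of dim probes are compressed by the offset.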
